A study of Caenorhabditis elegans with 2 samples.

Results

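The genes described here are epn-1, the gene for epsin, an adaptor of coated pits, and 8 further genes of clathrin-mediated endocytosis in Caenorhabditis elegans, chc-1, dpy-23, dyn-1, unc-57, unc-26, ehs-1, itsn-1 and rme-1. They are 9 of the 19973 protein-coding genes in the annotation. epn-1 was selected on measured values, because it held the strongest MDL-1 ChIP peak in a promoter apart from that of mdl-1. Regardless of place, 6 of the 1076 optimal regions were stronger, with mdl-1 at rank 1. The other 8 were added as genes of the same pathway. A region was assigned to a gene when its summit, the highest point that the authors' caller marked, lay inside the gene or within 5 kb of either end. The 9 genes held 8 of the 1076 optimal regions, 67 of the 30000 pooled regions, 73 regions of replicate 1 and 59 of replicate 2, and no optimal summit was shared by any of their windows.

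The data are ChIP-seq peak lists from whole L2 larvae, male and female pooled, of strain OP355, which carries unc-119(tm4063) on chromosome III and the integrated transgene wgIs355. The immunoprecipitated factor is MDL-1 per the antibody, source and experiment labels, whereas a note on both samples names KLU-1 as the protein with the C-terminal GFP-FLAG tag. There is 1 group of 2 biological replicates and no second condition, so no difference between conditions was tested. MDL-1 is a bHLH-Zip repressor of the Mad type that binds the E-box CACGTG with a Max-like partner. Whole animals were used, so binding in a few cells and weak binding in many cannot be told apart, and the signal is the authors' own value on a scale that is not stated.

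In clathrin-mediated endocytosis, the AP2 adaptor and accessory adaptors such as epsin gather cargo at the plasma membrane and recruit clathrin, which shapes a coated pit. Endophilin and dynamin then narrow and cut the neck, synaptojanin helps to strip the coat, and EHD proteins return membrane and receptors from endosomes to the surface. In worms, several of these proteins are known for the recycling of synaptic vesicles and the uptake of yolk by oocytes.

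Of the 9 genes, 4 had an optimal summit in their window, namely epn-1, dpy-23, dyn-1 and rme-1, where 10.6% of all protein-coding genes had one. The same 4 genes had an optimal summit in the promoter window, taken as the 1000 bp before and the 200 bp after each annotated start of the gene, where 3.07% of all protein-coding genes had one. epn-1 has to be among them, because its promoter peak chose it. The 3 genes with 2 or more optimal summits in the window were epn-1, dyn-1 and rme-1, and 1.94% of all protein-coding genes had as many. Chromosome X carries 3 of the 9 genes, epn-1, dpy-23 and dyn-1, and all 3 had an optimal summit in the window and in the promoter window. Among all X genes the shares were 16.9% and 5.42%. On the autosomes 1 of 6 genes, rme-1, had an optimal summit in either window, against 9.58% and 2.70% of all autosomal genes. No test was made of these counts, since the genes were chosen with results of these data known.

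The sequences at the 8 optimal summits are shown because 7 of them, the strongest included, have no CACGTG at the summit. Most optimal regions lack it too, since 22.0% of them all have the word within 50 bp of the summit. Each runs 50 bases to either side of the summit, 5′ to 3′ on the strand of the endocytosis gene, from the RefSeq sequence of WBcel235 (ce11). Capitals mark every match, on either strand, to the E-box CACGTG, the repeat word GAGAGA and a further word, GACGCA, which were counted over all optimal summits.
epn-1 region of rank 7, chrX:14818923-14819023, minus strand: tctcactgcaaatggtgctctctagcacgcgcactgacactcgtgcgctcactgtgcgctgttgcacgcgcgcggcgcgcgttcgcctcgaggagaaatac
dpy-23 region of rank 584, chrX:4388963-4389063, plus strand: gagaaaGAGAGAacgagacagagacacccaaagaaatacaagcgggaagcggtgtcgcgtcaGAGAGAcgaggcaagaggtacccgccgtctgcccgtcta
dyn-1 region of rank 772, chrX:15568449-15568549, plus strand: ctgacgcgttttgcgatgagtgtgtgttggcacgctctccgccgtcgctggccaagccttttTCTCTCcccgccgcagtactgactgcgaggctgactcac
rme-1 region of rank 201, chrV:6214000-6214100, plus strand: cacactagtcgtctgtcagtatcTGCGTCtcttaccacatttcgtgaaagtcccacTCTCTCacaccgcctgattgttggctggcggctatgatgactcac
dyn-1 region of rank 601, chrX:15566813-15566913, plus strand: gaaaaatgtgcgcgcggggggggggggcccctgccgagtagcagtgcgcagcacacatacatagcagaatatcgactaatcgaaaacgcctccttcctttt
rme-1 region of rank 909, chrV:6213440-6213540, plus strand: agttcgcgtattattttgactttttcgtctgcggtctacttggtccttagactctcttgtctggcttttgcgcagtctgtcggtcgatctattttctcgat
epn-1 region of rank 415, chrX:14813489-14813589, minus strand: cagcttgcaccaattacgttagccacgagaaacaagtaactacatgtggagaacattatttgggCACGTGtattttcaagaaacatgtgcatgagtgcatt
epn-1 region of rank 280, chrX:14810934-14811034, minus strand: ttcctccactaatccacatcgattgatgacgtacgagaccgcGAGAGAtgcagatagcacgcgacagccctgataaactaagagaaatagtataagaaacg

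The epn-1 peak, rank 7 of the optimal list, held none of the 3 words, and its nearest CACGTG was 698 bp from the summit. It was rich in CG dinucleotides, with 14 in the window, a number at or above that of 99.3% of optimal regions. Its G and C content was 62.4%, where the mean over all optimal summits was 49.6% and that in flanking windows 300 bp away was 35.6%. GAGAGA or its reverse complement occurred at the dpy-23 summit, at the nearer dyn-1 summit, at the stronger rme-1 summit and at the epn-1 region of rank 280. That made 4 of the 8 regions (exact 95% Clopper-Pearson interval 15.7 to 84.3%), where 35.1% of all optimal summits and 7.16% of flanks held it. GACGCA occurred at 1 of the 8 regions, the stronger rme-1 summit, where 21.5% of all optimal summits and 1.81% of flanks held it. The farther dyn-1 summit carried a run of 12 identical bases, a length that 0.465% of optimal summits reached.

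CACGTG lay within 50 bp of 1 of the 8 summits, 12.5% (exact 95% interval 0.316 to 52.7), where 22.0% of all optimal regions, 19.9% of those on X and 1.58% of flanks held it. In windows of the same length 350 bp upstream of the first start of each protein-coding gene, the share was 1.63%. The region with the word was the one of rank 415 in the epn-1 window, with the middle of CACGTG 17 bp from the summit. That summit is in an intron of T04C10.3, 4968 bp from the closest epn-1 start, so the 1 optimal region with an E-box was not at the promoter of an endocytosis gene. Words of the looser form CANNTG were found at 2 of the 8 summits (3.19 to 65.1%), where 49.5% of all optimal summits and 28.3% of flanks held one. These 2 were the epn-1 peak of rank 7 and the region of rank 415. The intervals cover counting error only and treat the 8 regions as independent, although epn-1, dyn-1 and rme-1 each gave more than 1. The epn-1 peak was also selected on its signal. For each word the share of all optimal regions lay inside the interval, but intervals this wide cannot tell the shares apart. A match says only that these letters are in the window.

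Adaptors come first in the pathway, and epn-1 had the strongest region of the 9 genes in every list. The epn-1 gene, WBGene00001329, lies on the minus strand of X from 14815798 to 14818514. Its peak, from 14818809 to 14819143, had a signal of 585 in the pooled list, 319 in replicate 1 and 275 in replicate 2, with ranks of 7, 6 and 7. The replicates averaged 297 ± 31.1 (SD, n = 2). The peak was 8.07 times the median optimal signal of 72.5 and 51.6% of the highest, the 1134 of mdl-1. The summit was intergenic, 459 bp upstream of the epn-1 start, and the replicates' summits were 9 and 13 bp from it. In each of the pooled and replicate lists, 2 protein-coding genes, mdl-1 and epn-1, had a promoter region of that rank or better. These values chose epn-1 and are a description.

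The other optimal regions in the epn-1 window were closer to other genes. The region of rank 280 had a signal of 107 in the pooled list, 66.4 in replicate 1 and 50.7 in replicate 2. Its summit was 174 bp upstream of the start of atf-4, which encodes a bZIP transcription factor, and 7523 bp from that of epn-1. The region of rank 415, the one with the E-box, had a signal of 87.2 in the pooled list, 40.6 in replicate 1 and 43.6 in replicate 2. Its nearest start was that of T04C10.3, 1178 bp away. Without the regions whose nearest start belongs to another gene, epn-1 keeps its promoter peak alone. The next optimal summit beyond the 5 kb limit, of rank 420 and signal 86.5, was 6.35 kb upstream of the gene and nearest to mbk-1.

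dpy-23 encodes the mu subunit of AP2, which binds sorting signals in the tails of cargo proteins. The gene, WBGene00001082, lies on the plus strand of X from 4389359 to 4393803. Its 1 optimal region, of rank 584, spans 4388843 to 4389182, with a signal of 69.9 in the pooled list, 43.8 in replicate 1 and 32.8 in replicate 2. Both replicates listed it, at ranks 473 and 670. The summit was 346 bp upstream of the start, the closest of any optimal summit to a start of its endocytosis gene. No other optimal summit lay within 20 kb of the gene. The pooled list had 13 regions in the dpy-23 window, more than at any of the other 8 genes, but the next of them, 6280 bp from the start, had a signal of 36.5 and rank 1772 in the pooled list. That region was stronger in replicate 1, with a signal of 29.5 and rank 933, and the regions of replicate 2 at dpy-23 other than the promoter region ranked 12677 at best.

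The other coat and scaffold genes had no optimal region. chc-1, the gene for the clathrin heavy chain on III from 10203821 to 10209704, had no pooled region at all in its window, which was true of 12.6% of all protein-coding genes. Replicate 1 listed 5 regions there, the strongest with a signal of 13.5 at rank 5214, and replicate 2 listed 1, with a signal of 8.83 at rank 26936. The closest optimal summit to chc-1, of rank 629 and signal 66.7, was 7.43 kb from the gene and nearest to cts-1. ehs-1, which encodes the Eps15 scaffold that works with epsin and AP2, had 1 pooled region with a signal of 15.8 at rank 18495. Replicate 1 had 2 regions at ehs-1 with a best rank of 19199, and replicate 2 had none. itsn-1, which encodes the scaffold intersectin, had 8 pooled regions, the strongest with a signal of 23.4 at rank 6016. That summit was 865 bp upstream of itsn-1 but nearer to the start of uaf-2, the gene for the small subunit of the splicing factor U2AF. In the pooled list the deposited −log10 q-value was 0.30 at the strongest itsn-1 region and 0.07 at the ehs-1 region. At the epn-1 peak it was 3.11, the ceiling of that list.

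dyn-1, the gene for dynamin, the GTPase that cuts the neck of the pit, had a pair of optimal regions upstream. The gene, WBGene00001130, lies on the plus strand of X from 15568890 to 15573021. The farther region, of rank 601, had a signal of 68.9 in the pooled list, 24.6 in replicate 1 and 42.5 in replicate 2, with its summit 2027 bp upstream. The nearer region, of rank 772, had a signal of 58.6 in the pooled list, 46.1 in replicate 1 and 32.2 in replicate 2, with its summit 391 bp upstream. The order of the dyn-1 regions thus differed between the replicates, with the nearer region stronger in replicate 1 and the farther in replicate 2. Both summits were intergenic and had dyn-1 as the nearest protein-coding start.

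The replicates also placed the nearer dyn-1 region differently. Replicate 1's summit was 5 bp from the pooled one, and that of the strongest overlapping region in replicate 2 was 211 bp from it. Over all optimal regions found in both replicates, the larger of the replicates' summit shifts had a median of 27.0 bp, and it was over 200 bp in 24 regions, 2.24%. The pooled signal at this region was 0.749 times the sum of the replicates' signals, where the median over all optimal regions was 0.994. Replicate 2 also listed a region near the pooled position, 386 bp upstream, with a signal of 9.33 at rank 24235.

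Of the genes that act with dynamin, unc-57 came nearest to the optimal list. It encodes endophilin A, which bends membrane at the neck. Its strongest region, 996 bp upstream of the first start and so just inside the promoter window, had a signal of 47.7 in the pooled list, 31.9 in replicate 1 and 20.4 in replicate 2. The pooled rank was 1104, where the optimal list ends at rank 1076 with a signal of 48.3. On the other side of that limit, the weakest optimal region of the 9 genes was at rme-1, with a signal of 53.4 and rank 909. The unc-57 region ranked 815 in replicate 1 and 2251 in replicate 2, so its place beside the 1076 strongest differed between the replicates. unc-26, the gene for the phosphatase synaptojanin, had 12 pooled regions, the strongest with a signal of 27.6 at rank 3565, in an intron of cpsf-3 and 3196 bp upstream. In replicate 1 the best unc-26 rank was 6280 and in replicate 2 it was 3404, at different positions.

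rme-1, which encodes the EHD ATPase of endocytic recycling, had the second strongest region of the 9 genes, and it lay inside the gene. The gene, WBGene00004373, lies on the plus strand of V from 6208885 to 6217664, and 12 transcripts with 11 different starts are annotated. The region of rank 201 had a signal of 129 in the pooled list, 75.4 in replicate 1 and 57 in replicate 2, with ranks of 171 and 239 in the replicates. Its summit was in an intron, 5165 bp downstream of the first start and 639 bp upstream of the start of transcript W06H8.1f.3. That start is the first of 4 internal starts that follow the summit. The second region, of rank 909, had its summit 1199 bp before the same start. It had a signal of 53.4 in the pooled list, 29.6 in replicate 1 and 14.1 in replicate 2, and its rank of 930 in replicate 1 contrasted with 8015 in replicate 2. A rank beyond 5000 in either replicate was found for 3.44% of all optimal regions. A stronger optimal summit, of rank 61 and signal 208, lay outside the limit at 6.99 kb from rme-1 and was nearest to W06H8.6.

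**Figure D1:**
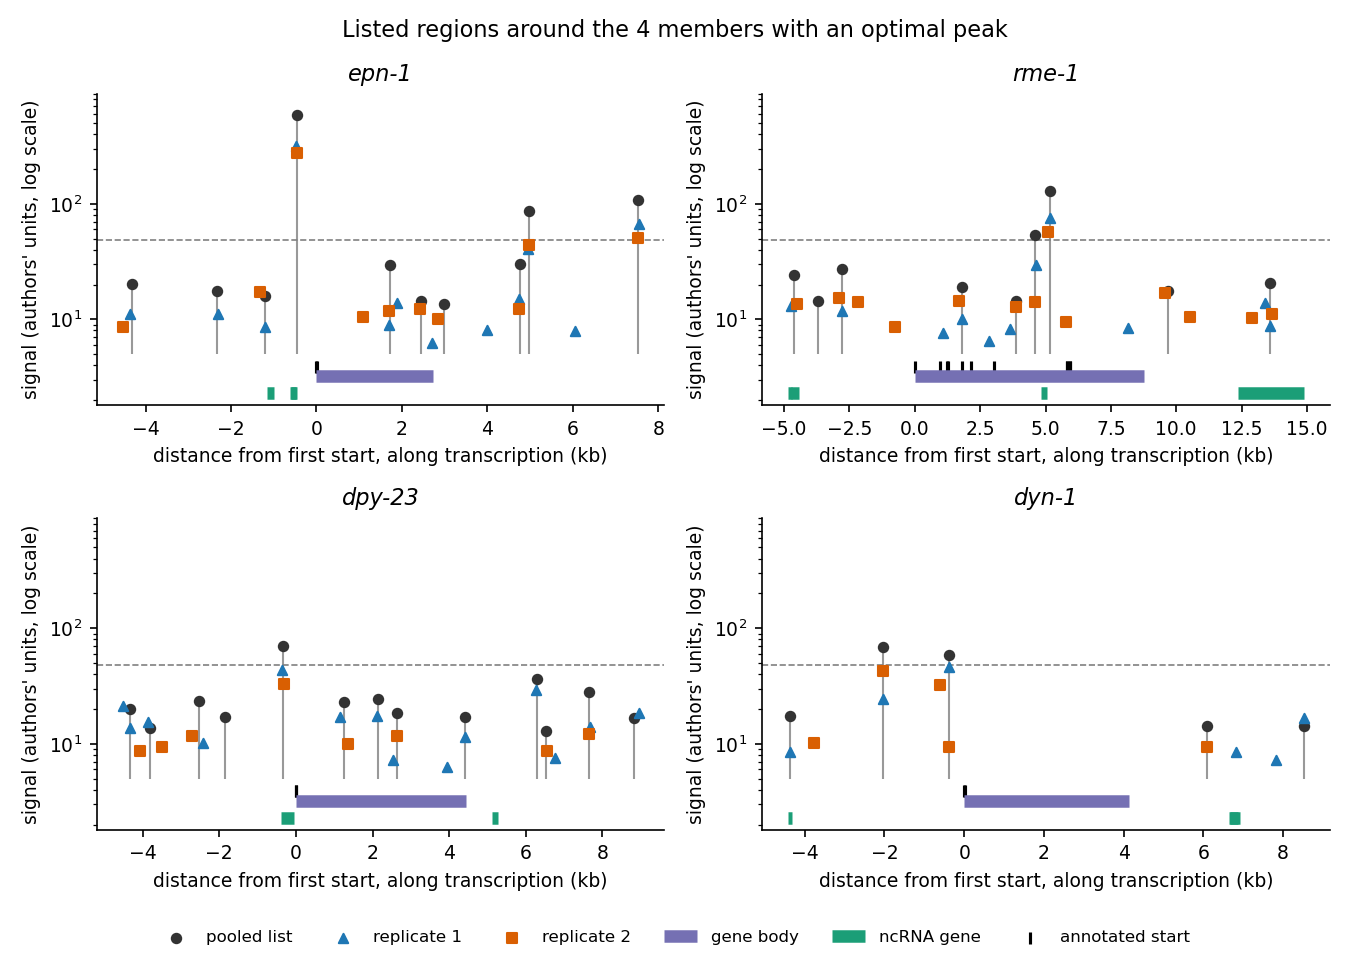
Regions of the pooled list (circles on stems) and of replicates 1 and 2 (triangles and squares) around the 4 genes with an optimal peak, by distance of the summit from the gene's first annotated start in kb along transcription (x) and signal in the authors' units on a log scale (y). Bars below show the gene body and genes annotated as ncRNA, ticks show annotated starts, and the dashed line is the lowest optimal signal of 48.3, which applies to the pooled list. The epn-1 peak stands at 585 just upstream of the start, and the rme-1 peaks lie inside the gene before its last group of starts.

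The 4 promoter peaks lay upstream of a start of their gene. Their summits lay 346 to 639 bp before the closest start of the gene, in a promoter window that itself reaches 1000 bp upstream but only 200 bp downstream. None of the 8 optimal summits was in a coding exon or a UTR, but the share among all optimal regions is not given here. Genes annotated as ncRNA lay within 200 bp of 3 of these 8 summits, 37.5%, where 19.6% of all optimal summits and 5.05% of positions 350 bp upstream of a first start had one. The epn-1 summit was 8 bp from T04C10.8 on the opposite strand and 14 bp from T04C10.9 on the strand of epn-1, both 139 bp long. The dpy-23 summit was inside R160.8, a gene of 340 bp on the opposite strand. The stronger rme-1 summit was 119 bp from W06H8.15, a gene of 216 bp on the opposite strand, and the weaker was 226 bp from it on its other side. No RNA was measured, so whether these regions belong to the protein-coding gene or to the ncRNA gene cannot be told apart.

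**Figure D2:**
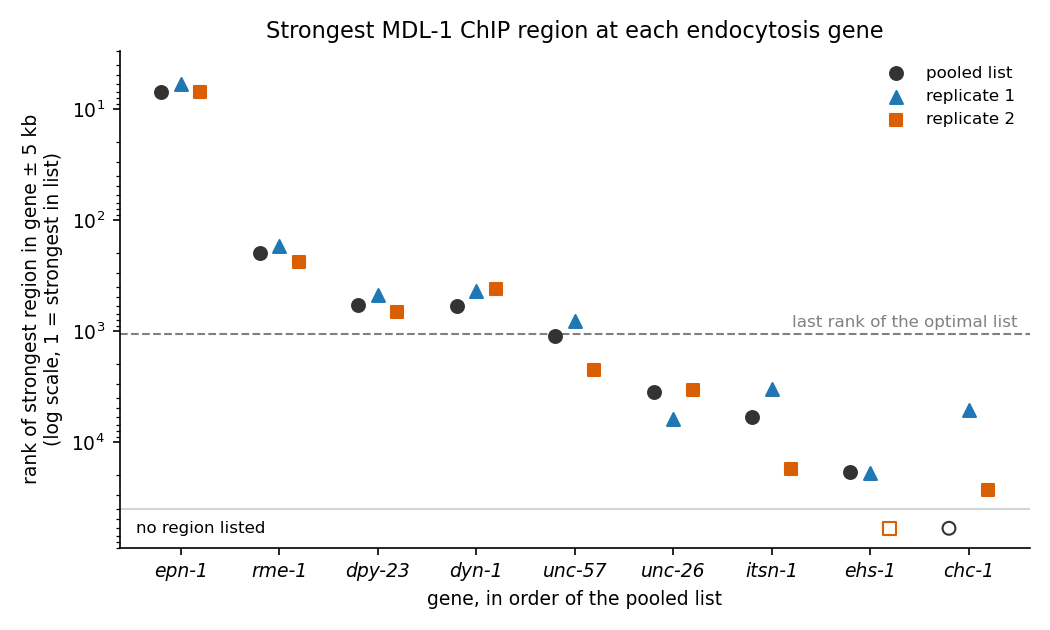
Rank of the strongest region inside each gene or within 5 kb (y, log scale, 1 is the strongest of 30000) in the pooled list and in replicates 1 and 2, with genes in order of the pooled list (x). The dashed line marks the last rank of the optimal list, 1076, and open symbols mean that no region was listed. Symbols for epn-1 lie between ranks 6 and 7, and those for unc-57 lie on both sides of the line.

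By the strongest region in the pooled list, the order was epn-1, rme-1, dpy-23, dyn-1, unc-57, unc-26, itsn-1 and ehs-1, with chc-1 unlisted. epn-1 and rme-1 were first and second in both replicates. dpy-23 and dyn-1, at 69.9 and 68.9 in the pooled list, stood in the opposite order in both replicates, with dpy-23 at 43.8 and dyn-1 at 46.1 in replicate 1, and 32.8 and 42.5 in replicate 2. The strongest dyn-1 region was the nearer one in replicate 1 and the farther one in replicate 2 and in the pooled list, so the order of dpy-23 and dyn-1 was not settled. Below unc-57, which came after these 4 in every list, the order changed from list to list. Replicate 1 had itsn-1, chc-1, unc-26 and ehs-1, and replicate 2 had unc-26, itsn-1 and chc-1, with ehs-1 unlisted. The strongest region of replicate 2 at itsn-1, with a signal of 10.8, ranked 17578, while that of replicate 1, with 15.8, ranked 3362.

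**Figure D3:**
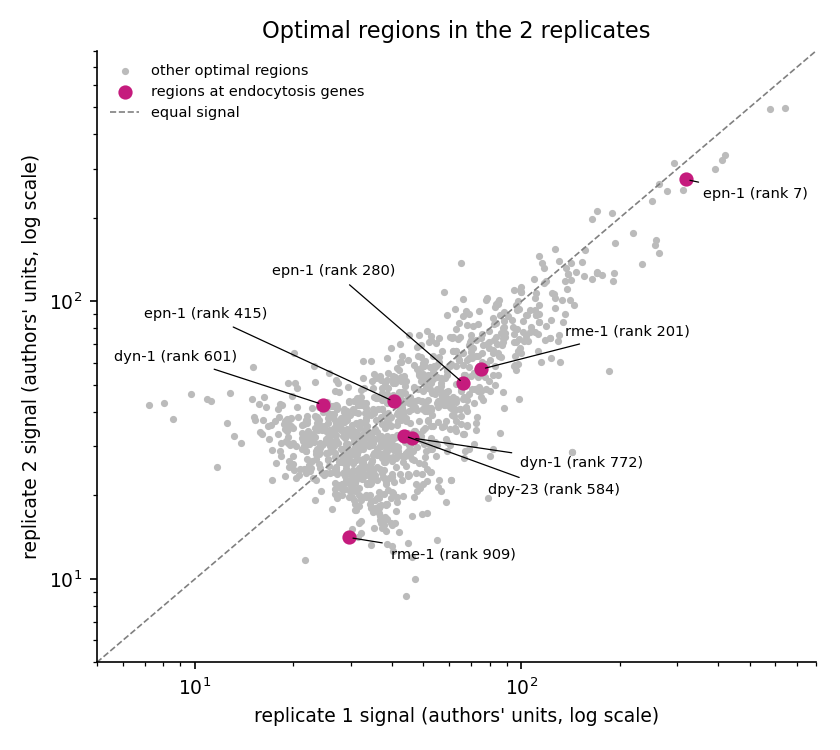
Signal of each optimal region in replicate 1 (x) and replicate 2 (y), both in the authors' units on log scales, taken from the strongest overlapping region of each replicate. The 8 regions at endocytosis genes are labelled with their optimal rank, grey points are the other optimal regions, and the dashed line marks equal signal. The epn-1 peak lies near the upper end at 319 and 275, and the weaker rme-1 region lies far below the line at 29.6 and 14.1.

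All 8 optimal regions overlapped a region in both replicates' full lists, as did 99.4% of all optimal regions. When only the 1076 strongest regions of each replicate were counted, 6 of the 8 were found in both, against 65.3% of all optimal regions. The exceptions were the farther dyn-1 region, which ranked 1262 in replicate 1, and the weaker rme-1 region. The nearer dyn-1 region is among the 6 only through the replicate 2 region of rank 703, whose summit was 211 bp from the pooled one. The ratio of replicate 1 to replicate 2 signal was 1.16 at the epn-1 peak, where the median over all optimal regions was 1.11 with quartiles at 0.844 and 1.43. It was 1.33 at dpy-23 and 1.32 at the stronger rme-1 region. It was 0.578 at the farther dyn-1 region, near the 5th percentile of 0.554, and 2.10 at the weaker rme-1 region, near the 95th percentile of 2.18.

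Below the optimal list, the windows of the 9 genes held weaker pooled regions. Of the 20 with ranks from 1077 to 10000, 16 overlapped regions in both replicates, 80.0%, against 63.1% of all pooled regions of those ranks. Of the 39 with ranks beyond 10000, 13 did so, 33.3%, against 19.7%. The median gene of the 9 had 4.82 pooled regions per 10 kb of window, against 2.55 for the other protein-coding genes, whose quartiles were 0.976 and 3.82. In replicate 1 these medians were 4.29 and 2.62, and in replicate 2 they were 4.77 and 2.64. dpy-23 was highest with 9 pooled regions per 10 kb, followed by epn-1 with 7.86, while chc-1 had 0 and ehs-1 had 0.760. dpy-23 and epn-1 lie on X, where 93.3% of genes had a pooled region in the window, against 86.5% on autosomes. The number per 10 kb over all X genes is not given here. The full lists hold background regions as well as peaks, and the difference in medians was not tested.

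**Figure D4:**
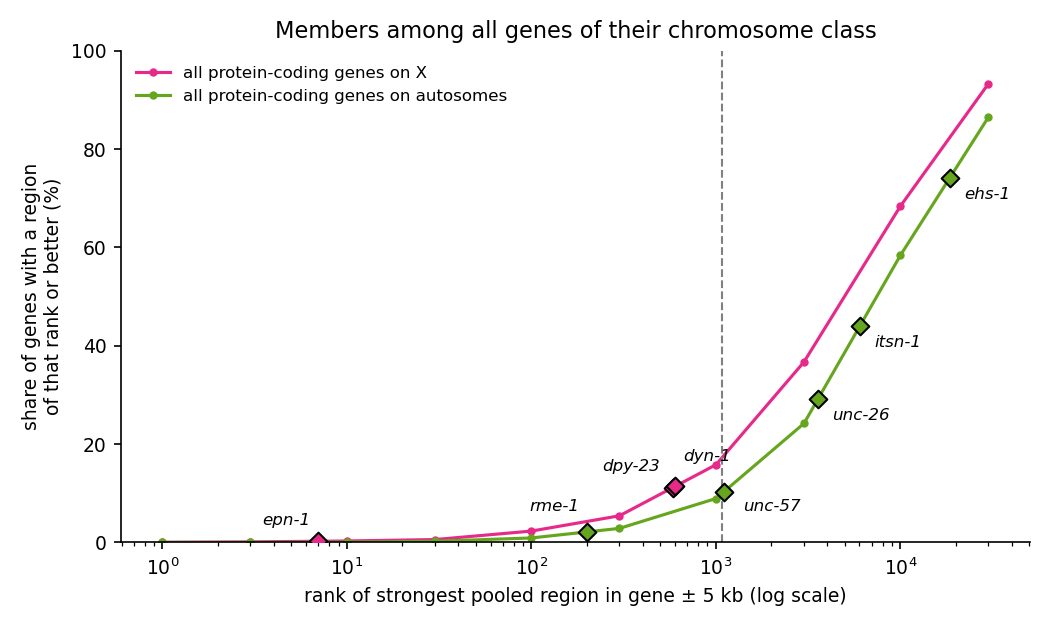
Share of protein-coding genes with a pooled region of a given rank or better inside the gene or within 5 kb (y, %), by that rank on a log scale (x), for genes on X and on autosomes. Diamonds place each endocytosis gene at the rank of its strongest pooled region on the line of its chromosome class, and chc-1, with no region, is not shown. dpy-23 and dyn-1 nearly coincide, and ehs-1 lies where most genes already have a stronger region.

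Among all protein-coding genes, 0.0651% had a pooled region as strong as epn-1's in their window and 2.03% one as strong as rme-1's. The epn-1 share describes the peak that chose it. For dpy-23 and dyn-1 the shares were 6.05% and 6.22%. Both genes lie on X, where regions were more frequent. Of all X genes, 5.42% had a pooled region of rank 300 or better, and 15.8% had one of rank 1000 or better. The shares of all protein-coding genes were 10.9% for unc-57, 30% for unc-26, 43.6% for itsn-1 and 77.8% for ehs-1.

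The other genes of the pathway were taken from 7 lists that cover coat, adaptors, scission, recycling, ESCRT sorting, receptors and the AP1 and AP3 adaptors. Of 65 genes outside the 9, 4 had an optimal summit in the promoter window, 6.15%, where 3.07% of all protein-coding genes had one. In the gene or within 5 kb, 10 had one, 15.4%, where 10.6% of all genes did. On X the counts were 1 of 8 in the promoter and 4 of 8 in the window, beside 5.42% and 16.9% of all X genes. On the autosomes they were 3 of 57 and 6 of 57, beside 2.70% and 9.58% of all autosomal genes. These counts were not tested. By list, the promoter count was 1 of 5 in the coat and AP2, 0 of 7 in the accessory adaptors, 0 of 5 in scission and uncoating and 1 of 18 in recycling. It was 2 of 14 in the ESCRT machinery, 0 of 8 among endocytic receptors and 0 of 8 among AP1 and AP3 subunits.

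The 4 genes with a promoter summit were vps-25, vps-32.1, rab-7 and aps-2. vps-25, a gene of the ESCRT-II complex, had a signal of 113 in the pooled list, 72.2 in replicate 1 and 48.4 in replicate 2, with the summit 60 bp past its start in the 5′ UTR. vps-32.1, for a core ESCRT-III subunit, had 109 in the pooled list, 57.3 in replicate 1 and 45.2 in replicate 2. Its summit was 628 bp upstream but closer to the start of icd-1, and it lay inside the ncRNA gene C56C10.15. rab-7, for the GTPase of late endosomes, had 92.3 in the pooled list, 56.5 in replicate 1 and 43.7 in replicate 2, and its summit was nearer to W03C9.5. aps-2, for the sigma subunit of AP2, had 48.7 in the pooled list, 11.7 in replicate 1 and 25.2 in replicate 2, with the summit 232 bp upstream. The aps-2 region ranked 1065 of 1076 in the optimal list, 7866 in replicate 1 and 1173 in replicate 2. None of these 4 summits had CACGTG within 50 bp, where 22.0% of all optimal regions had it, and 4 summits are too few to tell the shares apart.

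The remaining 6 of the 10 genes had an optimal summit in the window but not in the promoter, and they are named after their values were seen. They were rme-6, for an exchange factor of RAB-5, with a signal of 226, ehbp-1, for a partner of EHD proteins, with 191, and apa-2, for the alpha subunit of AP2, with 156. Weaker were apb-3, for the beta subunit of AP3, with 116, sdpn-1, for syndapin, with 66.3 and vps-4, for the ATPase that disassembles ESCRT-III, with 59.7. At each of these 6 the nearest protein-coding start belonged to another gene, for example the histone gene his-37 at ehbp-1 and oga-1 at apa-2.

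The genes whose promoter region was most like that of epn-1 were sought by the sum, over both replicates, of the absolute log2 ratio of ranks. The 5 closest were nipi-3 with a sum of 2.46, T28B11.1 with 2.48, ipla-6 and mif-4 with 2.78 each, and tos-1 with 3.87. ipla-6 and mif-4 share 1 region. nipi-3 is the gene for a Tribbles-like pseudokinase and lies on X like epn-1. It had ranks of 11 and 21 in the replicates, pooled signal 407 and no CACGTG at the summit. The other 3 regions had the word, as did 22.0% of all optimal regions. The share among regions of like rank is not given here. Since epn-1 was chosen on these ranks, every gene but mdl-1 had to be weaker, and the search is a description.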

How the data were processed

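ChIP-seq for MDL-1 was analysed in 2 replicates of 1 group. Per the text files deposited with the replicates, the authors made from each replicate's alignments and 1 further file a list of 30000 peaks and background regions, a like list for the replicates pooled, and a shorter optimal list after a threshold on the irreproducible discovery rate. No aligner, peak caller, version or threshold is given in the sources used here. The signal value, the −log10 q-value and the summit offset of each region are as deposited by the authors; sequencing depth is unknown. Regions were ranked by signal within each list, and the optimal list equals the 1076 strongest pooled regions. The ce11 lists were used with Ensembl release 115 gene models and the RefSeq sequence of the same assembly (WBcel235), with positions counted from 1. Of the ce10 lists, the optimal one entered 1 alternative and the others were not used. A summit was assigned to every gene whose window held it. Replicate values are those of the strongest region that overlaps by at least 1 bp. Words were searched on both strands within 50 bp of the summit. Functions were checked on planted summits with known answers. Python 3.11.15, pandas 2.3.3 and numpy 2.4.6 were used.

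No significance test was made. The genes and pathway lists were chosen with earlier results of these data known. Of the 75 symbols written in the lists, synj-1 matched no gene. Named were the 9 genes with every optimal region, pathway genes with a promoter summit, the gene with the nearest start, and the 5 genes most like epn-1. Alternatives covered windows, lists, thresholds, overlap and single replicates.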

Additional observations from a re-analysis of the deposited data

How the results depend on the processing

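No paired analysis was possible because there is 1 group. Of 40 alternative values, 29 stayed within 1.5 times the main value or within the replicates' spread, and 11 moved further. The 29 include the epn-1 signal in the pooled list, which could not change, because the optimal list is the top of that list. They also include the ce10 region, which was matched by rank and not by position. The values are counts and signals, which have no direction to turn. With the gene body alone, 1 of the 9 genes and 2 summits remained, and within 2 kb there were 5 summits. Among optimal regions above the median signal, 2 genes had a summit in the window and 2 in the promoter, with 4 summits in all. For the other pathway genes, the promoter count of 4 became 13 with the 3000 strongest pooled regions, 2 in the narrower promoter window and 2 with the nearest start only. The shares of all protein-coding genes under these changed settings are not given here. Whether the changed counts differ from the background therefore cannot be told. With single replicates the epn-1 signal ranged from 275 to 319, against 585 in the pooled list, and both values are counted as moved. The pooled signal was 0.984 times the sum of the replicates' signals, where the median over all optimal regions was 0.994. The lists thus differ in scale, and the epn-1 rank was 7 in the pooled list, 6 in replicate 1 and 7 in replicate 2. The unrecorded depth and the 2 replicates limit all values.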
